A study of Rattus norvegicus with 20 samples.

Results

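Podocytes are the epithelial cells that wrap the capillaries of the glomerulus, the filtering unit of the kidney. Their interlocking foot processes are bridged by the slit diaphragm, a protein sheet whose main component is nephrin, and an actin cytoskeleton, a coat of charged glycoproteins and a set of lineage transcription factors keep that structure in place. Injury to these cells is a known route to proteinuria, and calcineurin, the phosphatase that cyclosporine A and tacrolimus inhibit, is known to act on synaptopodin in podocytes. The genes described here are 8 podocyte and slit diaphragm genes, taken by symbol (Nphs1, Podxl, Wt1, Synpo, Ptpro, Clic5, Plce1 and Magi2) and carried between tables by identifier, of 32907 genes listed in either table. All 8 were found in both tables and all 8 passed the filter on low values in both.

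Whole kidneys of 20 male Wistar rats, aged 10 to 12 weeks per the labels, were used for bulk RNA sequencing with 1 library from each animal. The rats had an osmotic minipump under the skin for 28 days. The pump delivered saline vehicle (n = 4), cyclosporine A (n = 4, with a target trough that the labels write as 3 mg/ml), DMSO/PEG vehicle (25% DMSO with 75% polyethylene glycol, n = 6) or tacrolimus (n = 6, target trough 3.5 ng/ml). The drugs came with different vehicles and in separate tables, so a contrast across the tables mixes drug, vehicle and table, which cannot be told apart.

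Each library of the cyclosporine A table held 30468767 to 34308899 fragments on genes, and the tacrolimus libraries with their vehicle held 31670202 to 39358485. The share from the mitochondrial genome was 49.7% to 68.6% with saline, 80.2% to 90.8% with cyclosporine A, 10.5% to 13.7% with DMSO/PEG and 10.8% to 15.9% with tacrolimus. Nuclear genes were therefore read with 10283971 to 17256748 fragments per library with saline, 2905839 to 6549282 with cyclosporine A and 28339756 to 34928612 in the tacrolimus table. The deposited unit is FPKM, in which fragments are divided by gene length and library depth. Where the 2 tables are set side by side, levels are FPM, fragments per 1000000 fragments on nuclear genes. The cyclosporine A table was scaled to all fragments, mitochondrial ones included, so its FPKM were recomputed with size factors that equalise the median nuclear gene (rescaled FPKM), and results on the deposited scale are given where they differ. Cyclosporine A replicate 4 had the highest mitochondrial share (90.8%) and the fewest nuclear fragments (2905839) of all libraries.

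The kidneys were checked for markers of the cells around the podocyte. Of the listed genes, Cldn5 and Pvalb were at 0 in every library of both tables, Kirrel2 was at 0 in every library of the cyclosporine A table, and summed levels of the other lists are given beside the results they move with.

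The promoter sequences of 4 members are shown. They are chloride intracellular channel 5 (Clic5) and the members whose levels within groups had a correlation above 0.5 with Clic5 in both tables, as described further on (Ptpro, at 0.498 in the cyclosporine A table, lay just outside), and they were chosen after these values were seen. They are RefSeq sequences of the assembly GRCr8, from 250 bases before to 50 bases after the annotated start, 5′ to 3′ on the gene's strand. Capitals mark a GC box (GGGCGG on either strand) or an E-box (CANNTG, which reads the same on both strands).
Nphs1, chr1:94848011-94848310, plus strand: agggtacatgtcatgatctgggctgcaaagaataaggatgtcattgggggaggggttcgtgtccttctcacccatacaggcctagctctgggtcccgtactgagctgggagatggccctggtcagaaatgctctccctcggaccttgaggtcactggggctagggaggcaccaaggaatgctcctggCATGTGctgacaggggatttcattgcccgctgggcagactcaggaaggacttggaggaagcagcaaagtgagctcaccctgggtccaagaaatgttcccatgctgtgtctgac
Podxl, chr4:61149082-61149381, minus strand: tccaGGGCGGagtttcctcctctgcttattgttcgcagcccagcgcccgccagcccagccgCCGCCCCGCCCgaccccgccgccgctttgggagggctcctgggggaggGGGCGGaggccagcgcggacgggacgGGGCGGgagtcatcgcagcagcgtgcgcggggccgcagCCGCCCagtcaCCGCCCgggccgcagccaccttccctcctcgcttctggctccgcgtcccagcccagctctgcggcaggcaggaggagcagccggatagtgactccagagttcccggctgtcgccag
Clic5, chr9:24310915-24311214, minus strand: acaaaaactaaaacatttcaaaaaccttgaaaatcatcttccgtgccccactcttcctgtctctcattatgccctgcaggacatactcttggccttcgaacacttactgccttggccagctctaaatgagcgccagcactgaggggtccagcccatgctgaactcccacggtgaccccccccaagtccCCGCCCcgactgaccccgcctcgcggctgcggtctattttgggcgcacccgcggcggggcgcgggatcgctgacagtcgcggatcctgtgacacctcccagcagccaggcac
Synpo, chr18:56347310-56347609, minus strand: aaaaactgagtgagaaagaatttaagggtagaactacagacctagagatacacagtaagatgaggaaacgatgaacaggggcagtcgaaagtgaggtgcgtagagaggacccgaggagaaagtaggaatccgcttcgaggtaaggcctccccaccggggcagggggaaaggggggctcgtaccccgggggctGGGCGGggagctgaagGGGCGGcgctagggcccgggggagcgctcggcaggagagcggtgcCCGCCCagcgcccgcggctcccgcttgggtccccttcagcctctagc

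A promoter was matched for 7 of the 8 members, by symbol, and Plce1 was not matched. The GC box, which binds Sp-family factors, was present in 4 of the 7 member promoters (Podxl with 7 matches, some of which overlap, Synpo with 3, Clic5 and Ptpro with 1 each), beside 33.1% of 33469 promoters of the same length. The E-box, the motif of the Tcf21 and Myc families, was present in 2 of the 7 (Nphs1 with 1 match and Wt1 with 2), beside 72.1% of all promoters. The letters GCGNGGGNG, the core shared by Wt1 and Egr sites, were found only in Magi2 among the 7, beside 10.8% of all promoters. The homeodomain core TAATTA and the TATA box TATAAA were in none of the 7, beside 5.36% and 14.2% of all promoters. These are matches of letters in a window and not measured binding. The 4 promoters printed do not share a motif, since Nphs1 has an E-box and no GC box and the other three have GC boxes and no E-box.

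In the tacrolimus table all 8 genes were well covered, and their order per gene length was the same in both groups. With DMSO/PEG vehicle, podocalyxin stood highest at 30.8 FPKM ± 4.05 (SD, n = 6), followed by Clic5 at 20.4 ± 2.80, Nphs1 at 13.4 ± 1.15, Synpo at 11.5 ± 1.34, Ptpro at 9.99 ± 0.954, Wt1 at 4.59 ± 0.322, Plce1 at 1.35 ± 0.105 and Magi2 at 1.19 ± 0.305. The neighbours that overlapped in that order were Nphs1 and Synpo, Synpo and Ptpro, and Plce1 and Magi2, and the same pairs overlapped with tacrolimus. With saline, podocalyxin (2.20 rescaled FPKM ± 0.385, SD, n = 4) and Clic5 (1.42 ± 0.254) again led and did not overlap with each other or with the third gene, Synpo (0.505 ± 0.310). The 5 genes below Synpo lay between 0.106 and 0.260 rescaled FPKM on average, and each overlapped with its neighbour. Nphs1 was therefore the third gene of 8 in the tacrolimus table and the fifth in the saline group. With cyclosporine A every neighbour in the order overlapped.

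**Figure D1:**
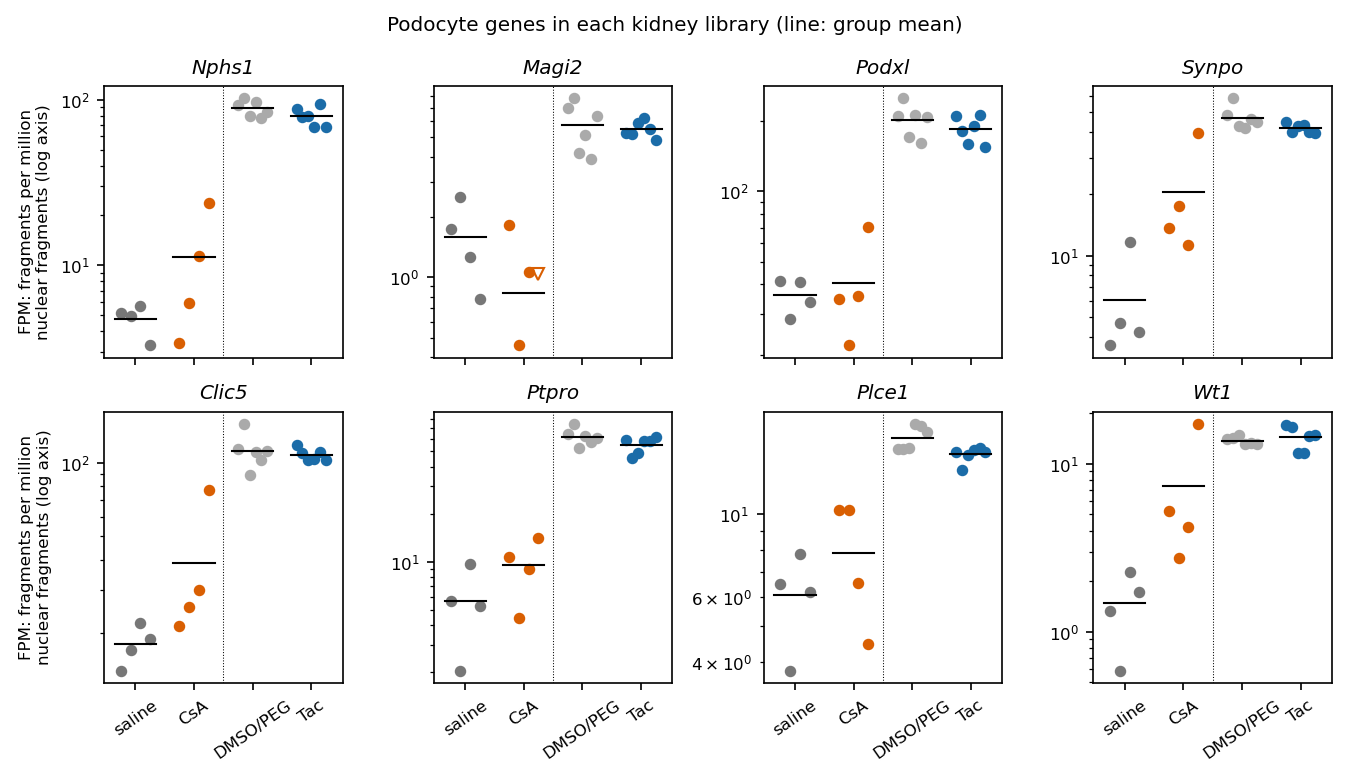
Level of each podocyte gene in each of the 20 kidney libraries, as FPM on a log axis, with 1 point per library and a line at the group mean. The dotted line separates the 2 deposited tables, and the open triangle marks the Magi2 value of 0 in cyclosporine A replicate 4, drawn at its upper limit of 1.03 and counted as 0 in the mean. Every saline library lies below every DMSO/PEG library for all 8 genes, and cyclosporine A replicate 4 is the highest of its group for 6 of them.

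None of the 8 podocyte genes passed the test with cyclosporine A. On rescaled FPKM, limma on log2(FPKM + 1) with Benjamini-Hochberg adjustment called 0 of 8 members, beside 0.609% of 13455 genes tested, and 2 of the 8 (Synpo and Wt1) had an unadjusted p under 0.05, beside 16.2% of all genes. The weighted limma test on the recovered fragments (voom) also called 0 of 8, beside 2.00% of genes. With voom 3 of the 8 had an unadjusted p under 0.05, beside 15.9% of all genes. Most members lay under 1 FPKM in this table, where adding 1 makes a fold change smaller, so the voom estimate is given beside each gene for which it differs by over 1.5 times. The log2 change was above 0 for 6 of the 8, beside 49.9% of genes, with a median of 0.19 beside -0.00048 over all genes tested. With voom the median was 0.60 beside -0.028. In whole kidney, a difference in the number of podocytes and a difference in RNA per podocyte cannot be told apart.

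The slit diaphragm itself is represented by nephrin and Magi2. Nephrin (Nphs1, ENSRNOG00000020873, the adhesion protein that spans the slit, chr1:88922433-88950559, plus strand, rn6) had 0.225, 0.215, 0.242 and 0.140 rescaled FPKM in saline replicates 1 to 4 and 0.137, 0.249, 0.481 and 0.887 with cyclosporine A. The treated libraries therefore held both the lowest and the highest of the 8 values, and the groups overlapped. Its log2 change was 0.23 (SE 0.15, 95% interval -0.099 to 0.56, limma adjusted p = 0.482). Without cyclosporine A replicate 4 it was 0.089, and with voom 0.67 (95% interval -0.33 to 1.66, voom adjusted p = 0.512). Those values rest on 42 to 89 fragments per saline library and 15 to 69 per treated library. Magi2 (ENSRNOG00000013962, a scaffold that binds nephrin from inside the cell, chr4:10995234-11610518, minus strand) had 0.118, 0.171, 0.0843 and 0.0520 rescaled FPKM with saline and 0.114, 0.0299, 0.0692 and 0 with cyclosporine A. It was the only member to pass the low-value filter through 1 group alone, with all 4 saline libraries and 0 treated libraries at the equivalent of 10 fragments. Its counts were 30, 26, 15 and 10 fragments with saline and 8, 3, 6 and 0 with cyclosporine A, and the 0 allows up to 1.03 FPM (3 fragments, counting error only). The log2 change was -0.071 (SE 0.073, 95% interval -0.23 to 0.092, limma adjusted p = 0.685). With voom it was -1.16 (95% interval -3.42 to 1.10, voom adjusted p = 0.632), and with a pseudocount of 0.1 it was -0.45, so the narrow interval holds for the log2(FPKM + 1) scale alone. Of the 4 short genes annotated within the Magi2 locus (3 non-coding and 1 protein-coding), all held 0 fragments in this table, and in the tacrolimus table they held 4 together.

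Podocalyxin (Podxl, ENSRNOG00000012495, the charged sialoprotein of the podocyte surface, also made by endothelium, chr4:58829060-58893170, minus strand) was near the same mean in both groups on rescaled FPKM. It had 2.55, 1.74, 2.47 and 2.02 with saline and 1.97, 1.30, 2.11 and 3.70 with cyclosporine A. Cyclosporine A replicates 2 and 4 were the lowest and the highest of the 8 libraries, and the other treated libraries lay inside the saline range. The log2 change was -0.0084 (SE 0.21, 95% interval -0.48 to 0.46, limma adjusted p = 0.990), and with voom -0.16 (95% interval -0.70 to 0.37, voom adjusted p = 0.795). The deposited scale gave another answer for this gene. There the values were 5.08, 2.17, 3.74 and 3.42 FPKM with saline and 1.22, 1.06, 1.55 and 1.56 with cyclosporine A, and podocalyxin fell by 0.94 on the log2 scale (SE 0.24, limma adjusted p = 0.00204). On that scale the median over all genes tested moved to -0.89 and 80.9% of them were called lower, so the change of podocalyxin was close to that of the median gene. It was the only member of the 8 called there, beside 81.1% of all genes. Its groups did not overlap on that scale, beside 68.0% of genes. Those of Magi2 did not either, but it had passed the filter through saline alone, the group where it was higher, so its separation is not counted. Nphs1, Ptpro, Clic5 and Plce1 stood above 0 on rescaled FPKM and below 0 on deposited FPKM. The median of the 8 on the deposited scale was -0.16, but adding 1 shrinks the change of low genes there too. The deposited mean with cyclosporine A over that with saline was 0.37 for Podxl, 0.22 for Magi2, 0.51 for Plce1 and 0.57 for Ptpro. It was 0.72 for Clic5, 0.77 for Nphs1, 1.18 for Synpo and 1.50 for Wt1.

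On the log2(FPKM + 1) scale the cytoskeletal members had the largest estimates, while with voom Wt1 (1.70) stood above Synpo (1.60) and Clic5 (0.75). Synaptopodin (Synpo, ENSRNOG00000019181, an actin-binding protein of the foot process, chr18:55865467-55916220, minus strand) had 0.309, 0.393, 0.968 and 0.350 rescaled FPKM with saline and 1.07, 1.43, 0.921 and 2.88 with cyclosporine A. A single saline library, replicate 3, overlapped with the treated group, and only with its lowest library. The log2 change was 0.74 (SE 0.23, 95% interval 0.23 to 1.25, limma adjusted p = 0.157), and with voom 1.60 (95% interval 0.72 to 2.49, voom adjusted p = 0.0683). Without cyclosporine A replicate 4 it was 0.52 (limma adjusted p = 0.170), and without saline replicate 3 it was 0.87 (limma adjusted p = 0.187). On deposited FPKM the change of Synpo was 0.13 (limma adjusted p = 0.526). Clic5 (ENSRNOG00000047218, which links the podocyte membrane to ezrin and actin, and is also found in endothelium, chr9:19121677-19372673, minus strand) had 1.12, 1.36, 1.73 and 1.48 rescaled FPKM with saline and 1.58, 1.96, 2.33 and 5.32 with cyclosporine A. Replicate 1 of the treated group lay inside the saline range and the other treated libraries lay above it. Its log2 change of 0.56 (SE 0.26, 95% interval -0.0071 to 1.13, limma adjusted p = 0.316) became 0.29 without cyclosporine A replicate 4.

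The signalling members had intervals that crossed 0 on both scales. Ptpro (ENSRNOG00000006231, the receptor tyrosine phosphatase GLEPP1 of the foot process, chr4:171250818-171461677, plus strand) ran from 0.0948 to 0.444 rescaled FPKM with saline and from 0.199 to 0.565 with cyclosporine A, with a log2 change of 0.16 (SE 0.12, 95% interval -0.10 to 0.42, limma adjusted p = 0.549) and 0.54 with voom (95% interval -0.51 to 1.59, voom adjusted p = 0.634). Plce1 (ENSRNOG00000014276, a phospholipase C whose loss causes a childhood nephrotic syndrome, chr1:257157264-257466064, plus strand) ran from 0.102 to 0.207 with saline and from 0.104 to 0.267 with cyclosporine A, with a log2 change of 0.044 (SE 0.080, 95% interval -0.13 to 0.22, limma adjusted p = 0.839) and 0.34 with voom (95% interval -0.50 to 1.18, voom adjusted p = 0.722). Their groups overlapped over most of their range.

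Wt1 (ENSRNOG00000013074, the zinc finger factor that maintains podocyte identity and is also made by parietal epithelium, chr3:95133713-95180564, plus strand) was the single member whose groups did not overlap on rescaled FPKM, beside 10.9% of genes tested. It had 0.129, 0.0560, 0.215 and 0.162 with saline and 0.466, 0.255, 0.393 and 1.42 with cyclosporine A. The values rest on 23, 6, 27 and 22 fragments with saline and on 23, 18, 24 and 50 with cyclosporine A, so 3 of the 4 treated libraries had counts inside the saline range, from smaller nuclear totals. The log2 change was 0.47 (SE 0.18, 95% interval 0.059 to 0.88, limma adjusted p = 0.249), and 0.26 without cyclosporine A replicate 4. With voom it was 1.70 (95% interval 0.29 to 3.11, voom adjusted p = 0.216) and with a pseudocount of 0.1 it was 1.42. On deposited FPKM the log2 change was 0.13 (limma adjusted p = 0.332).

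**Figure D2:**
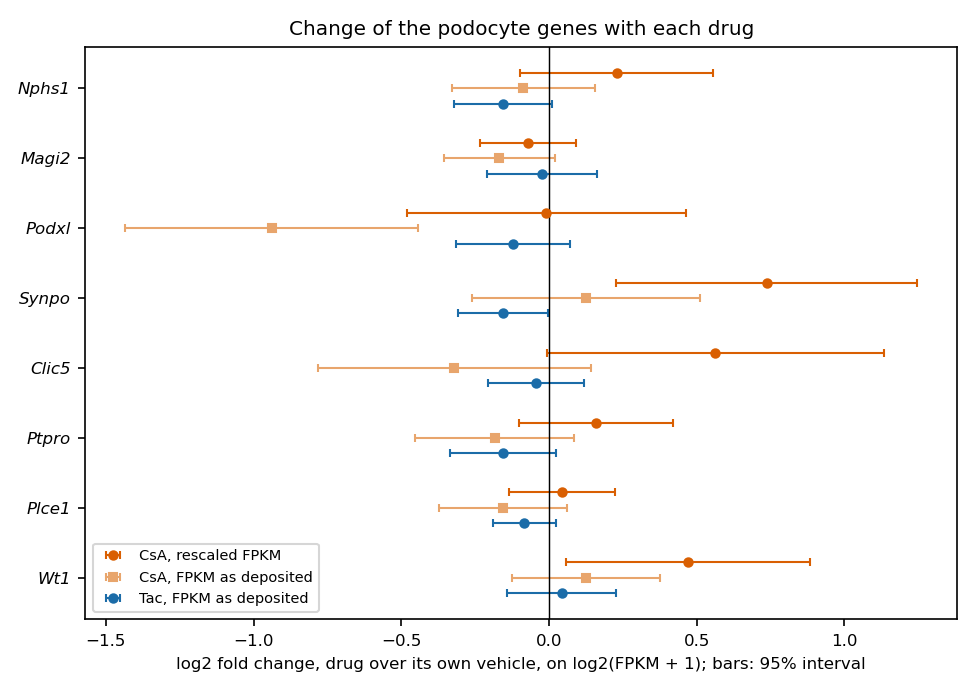
Log2 fold change of each podocyte gene with each drug against its own vehicle, on log2(FPKM + 1), with 95% intervals from limma. Orange circles are cyclosporine A on rescaled FPKM, light squares the same libraries on deposited FPKM, and blue circles tacrolimus. The tacrolimus estimates lie between -0.16 and 0.043, and the 2 cyclosporine A scales are farthest apart for Podxl (-0.0084 and -0.94) and Clic5 (0.56 and -0.32). The factor between those scales is the same for every gene of a library. Podxl and Clic5 were the members with the highest FPKM with saline, so adding 1 shrank their change least.

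One treated library carried much of the upward spread. Cyclosporine A replicate 4 was the highest of its group for Nphs1, Podxl, Wt1, Synpo, Ptpro and Clic5 and the lowest for Plce1 and Magi2. Without it the members' median log2 change was 0.097, beside -0.0035 over all genes. Limma then called 0 of 8, beside 1.00% of genes, and 6 of 8 were above 0, beside 49.3%. Summed over the 8 genes, the level was 64.1 to 102 FPM with saline and 88.9 to 247 with cyclosporine A. The summed mesangial markers ran from 125 to 152 with saline and from 145 to 327 with cyclosporine A, and those of the glomerular endothelium from 295 to 451 and from 367 to 551. Markers of the parietal epithelium, which also makes Wt1, ran from 1168 to 1408 with saline and from 1439.9 to 1520.0 with cyclosporine A, without overlap, but 3 of the 7 genes of that list had a log2 change above 0 and their median was -0.0071. The thick ascending limb sums (3456 to 5861 and 1943 to 2875) and the distal convoluted tubule sums (482 to 683 and 314 to 458) lay lower with cyclosporine A without overlap. Those of the proximal tubule (10239 to 13900 and 6593 to 13793) and the collecting duct (2054 to 3348 and 2078 to 4873) overlapped. The part of these markers, of depth and of the mitochondrial share in the members' values was not tested.

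None of the 8 genes passed the test with tacrolimus either, in libraries with far more fragments on these genes. Limma called 0 of 8, beside 0.303% of 15493 genes tested, and 1 of the 8 (Synpo) had an unadjusted p under 0.05, beside 8.58% of all genes. The voom test called 0 of 8, beside 0.316% of genes, with 1 under an unadjusted p of 0.05, beside 8.55%. The log2 change was above 0 for 1 of the 8, beside 49.8% of genes, with a median of -0.10 beside -0.00033 over all genes, and no member had groups that did not overlap, beside 0.975% of genes.

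Nephrin ran from 12.1 to 14.9 FPKM (median 13.3) with DMSO/PEG and from 10.3 to 13.8 (median 11.997) with tacrolimus, on 2091 to 3065 fragments per library. Its log2 change was -0.16 (SE 0.076, 95% interval -0.32 to 0.0089, limma adjusted p = 0.617). The 3 lowest libraries were treated and the 3 highest were vehicle, with the rest interleaved. Synaptopodin ran from 9.92 to 13.9 FPKM (median 11.3) with DMSO/PEG and from 9.58 to 10.8 (median 10.3) with tacrolimus, with a log2 change of -0.16 (SE 0.070, 95% interval -0.31 to -0.0036, limma adjusted p = 0.560). Only 1 vehicle library, DMSO/PEG replicate 4, lay within the treated range, and the other vehicle libraries lay above it.

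Ptpro ran from 8.76 to 11.6 FPKM (median 9.78) with DMSO/PEG and from 7.20 to 10.4 (median 9.19) with tacrolimus, a log2 change of -0.16 (SE 0.084, 95% interval -0.34 to 0.024). Podocalyxin ran from 25.5 to 37.0 FPKM (median 31.4) with DMSO/PEG and from 24.9 to 31.7 (median 28.0) with tacrolimus, a log2 change of -0.12 (SE 0.089, 95% interval -0.31 to 0.072). DMSO/PEG replicate 2 stood above all treated libraries for both genes and replicate 1 for Podxl alone, and the other vehicle libraries lay within the treated range. Plce1, at 1.22 to 1.50 and 1.08 to 1.30 FPKM, had a log2 change of -0.084 (95% interval -0.19 to 0.023), and -0.15 with voom (95% interval -0.31 to 0.0082).

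Clic5 ran from 16.9 to 25.4 FPKM (median 19.9) with DMSO/PEG and from 18.7 to 20.8 (median 19.6) with tacrolimus, and its log2 change was -0.045 (95% interval -0.21 to 0.12). Magi2 ran from 0.839 to 1.57 FPKM and from 1.06 to 1.28, a log2 change of -0.023 (95% interval -0.21 to 0.16). Wt1, the one member above 0, ran from 4.24 to 5.14 FPKM (median 4.58) with DMSO/PEG and from 3.84 to 5.45 (median 5.01) with tacrolimus, a log2 change of 0.043 (95% interval -0.14 to 0.23). The vehicle range of Clic5 and of Magi2 enclosed the tacrolimus range, and for Wt1 the tacrolimus range enclosed that of the vehicle. On log2(FPKM + 1), the 95% interval with tacrolimus reached a change of 0.5 in either direction for none of the 8. Adding 1 shrinks the change most for Plce1 and Magi2, the members with the lowest FPKM. DMSO/PEG replicate 2 was the highest of its group for 6 of the 8 genes, all but Wt1 and Plce1.

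To compare the drugs, the tacrolimus change of each gene was subtracted from its cyclosporine A change, each taken from its own table. Limma called 0 of 8 members, beside 1.63% of 13392 genes, while 4 of the 8 (Nphs1, Synpo, Ptpro and Clic5) had an unadjusted p under 0.05, beside 16.0% of genes. The difference was largest for synaptopodin, at 0.89 (SE 0.24, 95% interval 0.37 to 1.41, limma adjusted p = 0.0875). With voom it was 1.77 and passed (voom adjusted p = 0.0414), the single member of 8 called there, beside 2.26% of genes. For Clic5 the difference was 0.61 (95% interval 0.025 to 1.19), for Nphs1 0.38 (95% interval 0.032 to 0.74), and for Ptpro 0.32 (95% interval 0.014 to 0.62), each with a limma adjusted p of 0.269 or more. Without cyclosporine A replicate 4 the difference was 0.33 for Clic5, 0.24 for Nphs1 and 0.68 for Synpo. In that fit 1 of the 8 (Synpo) had an unadjusted p under 0.05, beside 15.9% of genes. With voom the difference was 0.84 for Nphs1, 0.71 for Ptpro and 1.65 for Wt1, none of which passed. With deposited FPKM in the cyclosporine A table the difference of podocalyxin was -0.82 (limma adjusted p = 0.00653), the single member called, beside 75.2% of genes.

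No tested gene of the other filtration barrier lists passed the test on the main scale with either drug. The lists were 5: slit diaphragm partners, actin and cytoskeleton, transcription factors, basement membrane with its adhesion genes, and other podocyte-enriched genes. Limma called 0 of 71 of their tested genes with cyclosporine A, with 15 (21.1%) under an unadjusted p of 0.05, beside 0.609% and 16.2% of all genes. With tacrolimus it called 0 of 76, with 8 (10.5%) under it, beside 0.303% and 8.58%. Voom called 1 of 71 with cyclosporine A, beside 2.00% of genes, with 17 under an unadjusted p of 0.05, beside 15.9%. That gene was Fat1, a giant protocadherin of the slit diaphragm, with a log2 change of -0.69 (SE 0.14, voom adjusted p = 0.0258). On deposited FPKM 54 of the 71 (76.1%) were called, all of them lower, beside 80.9% of all genes called lower. Median log2 changes with cyclosporine A on rescaled FPKM were 0.00066 for the 16 slit diaphragm partners tested, 0.0028 for 15 cytoskeletal genes, 0.085 for 8 transcription factors, -0.0081 for 17 basement membrane genes and -0.042 for 15 other podocyte-enriched genes. With tacrolimus the 5 medians lay between -0.044 and 0.061.

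Within these lists the largest estimates came from genes that tubules also express as well as from podocyte genes. Cgnl1, a junction protein and the most abundant slit diaphragm partner in the tacrolimus table (107 FPKM ± 7.44, SD, n = 6, with DMSO/PEG), had a log2 change of 0.56 with cyclosporine A (limma adjusted p = 0.185) and -0.18 with tacrolimus (limma adjusted p = 0.348). Slc9a3r1 (NHERF1, a scaffold for podocalyxin that is also abundant in proximal tubule) had 165 to 187 rescaled FPKM with saline and 71.5 to 143 with cyclosporine A, without overlap, as had 10.9% of genes. Its log2 change was -0.67 (SE 0.19, limma adjusted p = 0.131) with cyclosporine A and 0.18 (limma adjusted p = 0.504) with tacrolimus. Sema3g, a semaphorin made by podocytes, ran from 0.900 to 1.20 rescaled FPKM with saline and from 1.58 to 8.82 with cyclosporine A, also without overlap. Its log2 change was 0.90 (SE 0.37, limma adjusted p = 0.271), and 0.45 without cyclosporine A replicate 4.

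Lamb2, the laminin chain of the mature glomerular basement membrane, had a log2 change of 0.43 with cyclosporine A (limma adjusted p = 0.146) and -0.050 with tacrolimus. Itgb1, the integrin chain that anchors podocytes to that membrane, stood at 102 FPKM ± 4.84 (SD, n = 6) with DMSO/PEG and had log2 changes of -0.0081 with cyclosporine A and -0.0067 with tacrolimus. Of the transcription factors, Tcf21 was the most abundant (25.2 FPKM ± 5.16, SD, n = 6, with DMSO/PEG), with log2 changes of 0.019 with cyclosporine A and 0.11 with tacrolimus. Foxc1 had -0.37 with cyclosporine A (limma adjusted p = 0.365), and Hey1, a Notch target, had -0.27 with tacrolimus (limma adjusted p = 0.450). Nck1, the adaptor that links nephrin to actin, had -0.19 with tacrolimus (limma adjusted p = 0.578). Enpep, an aminopeptidase of podocytes and proximal tubule, had 0.29 with tacrolimus (limma adjusted p = 0.314). Ptgds, a prostaglandin synthase, was the most abundant of the other podocyte-enriched genes (102 FPKM ± 48.7, SD, n = 6, with DMSO/PEG), with log2 changes of -0.41 with cyclosporine A (limma adjusted p = 0.232) and -0.15 with tacrolimus. The tetraspanin Cd151 (ENSRNOG00000046094, the more abundant of 2 entries with that symbol) had the largest estimate of its list with tacrolimus, 0.77 (SE 0.49, limma adjusted p = 0.734), which became 0.36 without tacrolimus replicate 1. Its tacrolimus libraries ran from 2.29 to 24.9 FPKM around a median of 2.75.

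Among markers of other kidney cells, limma called none of the glomerular endothelial, mesangial, parietal or leukocyte genes tested with either drug. With cyclosporine A it called 1 of 10 proximal tubule genes higher, 1 of 5 thick ascending limb genes lower and 1 of 3 distal convoluted tubule genes lower, beside 82 of 13455 genes (0.609%). That total was 1 to 22 when any 1 saline library was left out and 18 to 139 when a treated library was. With tacrolimus it called 3 of 3 distal convoluted tubule genes lower and no other marker, beside 0.303% of genes, and their summed level ran from 841 to 991 FPM with DMSO/PEG and from 193 to 308 with tacrolimus.

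The largest gap in these genes was between the vehicle groups of the 2 tables. Nephrin was at 4.77 FPM ± 1.03 (SD, n = 4) with saline and 88.9 ± 9.92 (SD, n = 6) with DMSO/PEG, 18.7 times higher. The same ratio was 11.0 for Ptpro, 9.29 for Wt1, 7.80 for Synpo, 6.22 for Clic5, 5.58 for Podxl, 3.63 for Magi2 and 2.63 for Plce1. Every saline library lay below every DMSO/PEG library for all 8 genes, beside 25.1% of 13392 genes, and 6 of the 8 were more than 4 times apart, beside 2.63% of genes. The median ratio was 7.01 for the members and 1.05 over all genes. The tables were normalized separately and no test was made between them.

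The gene length behind the values also differed between the tables. Podxl, Synpo, Clic5, Plce1 and Magi2 gave whole fragments in the cyclosporine A table only when a length below the listed length was used (4117 and 5725 bases for Podxl, 3155 and 4785 for Clic5), while Nphs1, Ptpro and Wt1 had the same length in both and were the members with the highest ratios. The mitochondrial share differed as well, from 49.7% to 68.6% with saline and from 10.5% to 13.7% with DMSO/PEG. The part of mitochondrial share, vehicle and table in the gap, and of length for the members where it differed, cannot be told apart.

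Other podocyte genes also had large ratios, while most cytoskeletal and junctional genes on the lists did not. Among the lists, the ratios over 7 included 19.4 for Sema3g, 14.5 for Npr3, 7.98 for Ddn, 7.84 for Foxc2, 7.48 for Pdpn, 7.45 for Robo2 and 7.18 for Kirrel1, all genes with strong podocyte expression in the glomerulus, chosen here for the size of their ratio. List medians were 2.96 for other podocyte-enriched genes, 2.24 for transcription factors, 1.73 for basement membrane genes, 1.57 for slit diaphragm partners and 1.54 for cytoskeletal genes. Of the other cell types, the median was 2.26 for glomerular endothelium, 1.80 for mesangial cells, 0.92 for parietal epithelium, 2.90 for proximal tubule, 1.32 for thick ascending limb and 0.54 for collecting duct. The proximal tubule list held the largest ratios, 168 for Slc5a2 and 105 for Slc4a4, beside 0.75 for the lowest gene of that list.

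**Figure D3:**
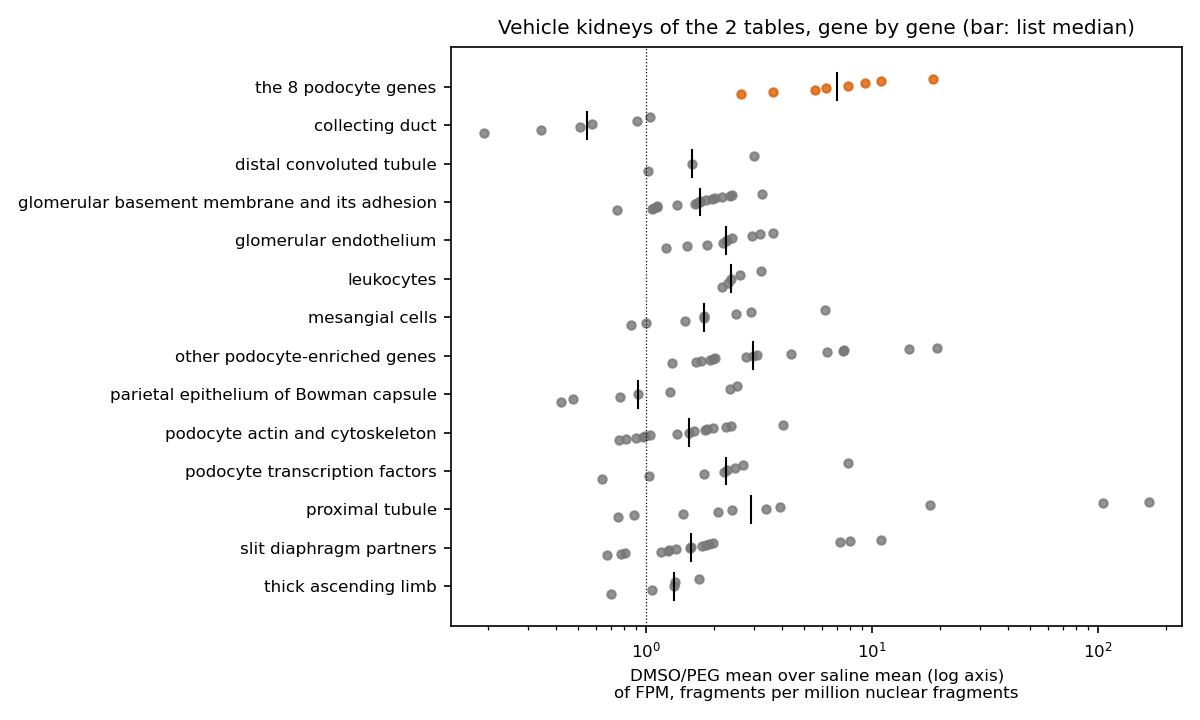
Mean level with DMSO/PEG vehicle over mean level with saline vehicle, in FPM, on a log axis. Each point is a gene tested in both tables, each row a list, and the bar its median. The 8 podocyte genes lie between 2.63 and 18.7, and the median of all 13392 genes was 1.05.

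Within groups, some members varied together from animal to animal. Correlations were taken over the libraries of a table after removing each group's mean from log2(FPKM + 1), so they describe libraries that share preparation and depth, and they carry no test. Over the 28 pairs the median Pearson r was 0.46 in the cyclosporine A table (8 libraries, 16 pairs above 0) and 0.17 in the tacrolimus table (12 libraries, 18 pairs above 0), beside -0.010 and -0.0044 for members with all other genes. In the tacrolimus table Clic5 had the highest median r with the other 7 members (0.61), and in the cyclosporine A table Wt1 did (0.80), followed by Podxl and Clic5 (0.78 each). The r of Clic5 was 0.92 and 0.53 with Nphs1, 0.78 and 0.69 with Podxl, 0.85 and 0.67 with Synpo and 0.50 and 0.61 with Ptpro, in the cyclosporine A and the tacrolimus table. Nphs1 and Podxl had r of 0.80 and 0.67. Synpo had 0.13 with Nphs1 and 0.27 with Podxl in the tacrolimus table. Plce1 ran against Nphs1, Podxl, Synpo, Clic5 and Wt1 in both tables (r of -0.34 to -0.81 and -0.32 to -0.52). Magi2 and Wt1 differed between tables: Magi2 had r of -0.64 and 0.67 with Clic5, and Wt1 had 0.90 and 0.038.

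Nphs1, Podxl and Synpo were chosen for an r above 0.5 with Clic5 in both tables, which fixed their pairs with Clic5 in advance. Together with Clic5, these genes, whose promoters are printed, had a median r over 6 pairs of 0.79 (cyclosporine A table) and 0.60 (tacrolimus table). Without the 2 libraries farthest from the median (cyclosporine A replicate 4 and saline replicate 3) it was 0.13 over 6 libraries, and without DMSO/PEG replicates 2 and 3 it was 0.35 over 10 libraries. Over all 28 pairs the median r was -0.064 (13 pairs above 0) and 0.11 (17 pairs above 0) without the same libraries. The libraries left out were those where the members' own mean lay farthest from its median, a choice that by itself favours a lower r. The genes outside the set whose profile was most like the members' mean in both tables were Csgalnact2, Dcn, Usp53, Rab8b and Arhgap12, of 9719 candidates, with the lower of the 2 r values between 0.76 and 0.79. They were picked from so many candidates for that r, which was not tested. Csgalnact2 extends chondroitin sulfate chains and Dcn is the matrix proteoglycan decorin.

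**Figure D4:**
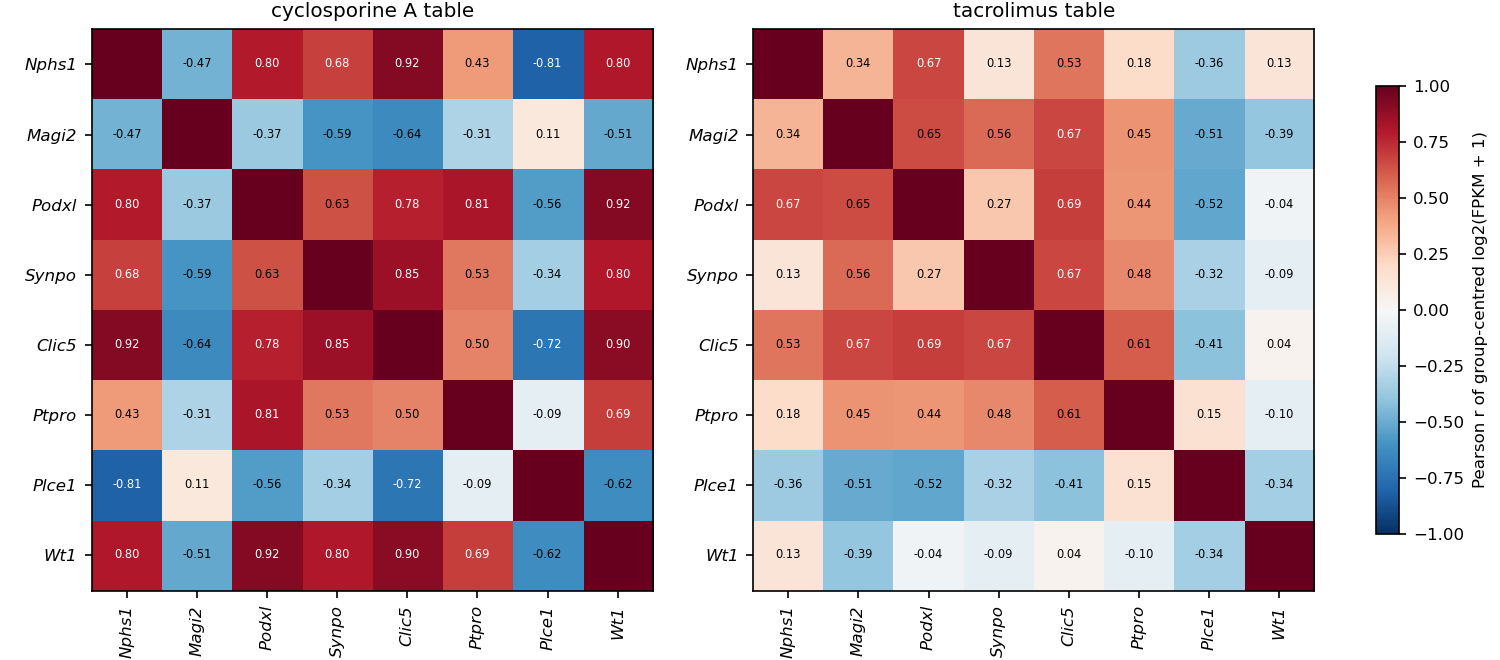
Pearson r between podocyte genes over the 8 libraries of the cyclosporine A table and the 12 of the tacrolimus table, on log2(FPKM + 1) with each group's mean removed. Red is positive and blue negative. Clic5 is positive with Nphs1, Podxl, Synpo and Ptpro in both tables (0.50 to 0.92), and Plce1 is negative with Nphs1, Podxl, Synpo, Clic5 and Wt1 in both.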

How the data were processed

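Reads were aligned with HISAT2 to the rat build rn6, per the submitters' processing notes; the counting program, strand setting and annotation release are not given in the sources used here. The authors deposited 2 tables of FPKM, 1 per drug with its vehicle; the unit was judged from the values, since no label names it. Fragments were recovered as value times gene length in whole multiples of 1 unit per library. All deposited values of the tacrolimus table came out whole, and 74.1% of those of the cyclosporine A table did with the listed length. Each drug was tested against its vehicle with limma 3.58.1 (R 4.3.3, trend) on log2(FPKM + 1), with Benjamini-Hochberg adjustment over all genes and calls under 0.05. Fold changes on that scale understate the change of low genes. Tested genes reached 10 fragments at the median library size in as many libraries as the smaller group and 15 fragments in total. The difference between drugs used Satterthwaite degrees of freedom. Tests ran first on simulated data. Replicates are separate animals. Named beside the members were, for each list, the most abundant gene and the gene with the largest change per comparison, and the 5 genes most like the members; genes named for a vehicle ratio, or for a call under an alternative, were chosen after their values were seen. The members and lists were chosen with earlier results of these data known. Alternatives were another scaling, pseudocount, filter, voom, a replicate block and leaving out each library. Sox4, Hspg2 and Pecam1 were not matched. Some listed genes counted in the lists are not reported here by name.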

Additional observations from a re-analysis of the deposited data

Results flagged for a closer look

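Of 32 sets of values, 8 genes in each of 4 groups, 1 held a library far from the others of its group. Synpo in saline vehicle replicate 3 stood at 0.968 rescaled FPKM, where the other saline libraries lay between 0.309 and 0.393, and its gap to the nearest of them was 0.87 of the group's range. Chance flags about 1 in 20 such sets. Saline replicate 3 was also the highest of its group for Nphs1, Wt1, Ptpro, Clic5 and Plce1. Without it the change of Synpo with cyclosporine A was 0.87 on the log2 scale (limma adjusted p = 0.187).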

How the results depend on the processing

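No member was called with tacrolimus under any alternative run, nor with cyclosporine A except on deposited FPKM, where 1 was called (Podxl). In the difference between drugs 1 member was called with deposited FPKM and 1 with voom. Pathway genes called with cyclosporine A numbered 54 on deposited FPKM and 1 with voom (Fat1). Leaving out each library in turn gave 0 members in each comparison, and 0 pathway genes with cyclosporine A; with tacrolimus it gave 0 to 1 pathway genes, the 1 being Npnt (-0.37, limma adjusted p = 0.0238) without DMSO/PEG vehicle replicate 5. In the difference between drugs, where limma called 0 pathway genes, 54 were called with deposited FPKM, 2 with voom (Slc9a3r1, -0.85, voom adjusted p = 0.0257, and Cgnl1, 0.76, voom adjusted p = 0.0446) and 1 with the nuclear total (Slc9a3r1); leaving out a library gave 0 to 1, namely Slc9a3r1 without cyclosporine A replicate 2 or 4, DMSO/PEG replicate 3 or tacrolimus replicate 1, Cgnl1 without saline replicate 3 and Sox11 without DMSO/PEG replicate 5. On deposited FPKM the sign of the cyclosporine A change turned for Nphs1 (-0.088), Ptpro (-0.18), Clic5 (-0.32), Plce1 (-0.16), Cgnl1 (-0.71), Lamb2 (-0.74) and Tcf21 (-0.97), and that of the difference between drugs for Podxl (-0.82), Ptpro (-0.028), Clic5 (-0.27) and Plce1 (-0.072); the table's total includes mitochondrial fragments. Podxl became 0.059 with cyclosporine A under scaling to the nuclear total, and its difference -0.040 with voom; the cause was not tested. Leaving out single libraries moved Podxl between -0.20 and 0.14 with cyclosporine A and between -0.078 and 0.27 in the difference, and with tacrolimus Clic5 between -0.094 and 0.018 and Magi2 between -0.070 and 0.027. With the replicate number as a replicate block, 0 members and 0 pathway genes were called with either drug. Same-numbered libraries did not pair: deviations of the same number correlated at -0.15 to 0.21 for saline and cyclosporine A and at -0.15 to 0.18 for DMSO/PEG and tacrolimus, and 2 of 4 and 2 of 6 matched their own number best. Depth limits the cyclosporine A comparison more than the tacrolimus comparison, since its treated libraries held 0 to 8 Magi2 fragments and 15 to 69 of Nphs1. The limit given for a count of 0 covers counting error only.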
